A study of Homo sapiens with 2 samples.

Results

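Glycolysis and hypoxia response genes were followed in human cardiomyocytes grown from embryonic stem cells: 35 named genes of 36601 in the deposited matrix, each present as 1 row. The members were chosen by symbol from the pathway, with earlier results of these data known. They comprise 4 glucose and lactate transporters, 9 preparatory enzymes of glycolysis, 10 pay-off enzymes including lactate dehydrogenase, 3 regulators of flux and 9 other genes of the hypoxia response. The cells were H9-derived cardiomyocytes from day 15 of differentiation that carried the gCaMP6f calcium reporter. They had been frozen and thawed, stained with hashtag antibodies sample by sample and pooled. A gene expression library and a hashtag library were made from the pool, so all cells share line, reporter and capture, and there is no replicate library. The labels do not say which sample each of the 13 hashtags marked or whether any are replicates, so values by hashtag are given as a description.

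Glycolysis breaks glucose down to pyruvate and yields ATP without oxygen. Several steps exist as isoenzymes from separate genes, some of them typical of muscle. When oxygen is low, hydroxylation of the HIF factors by the EGLN prolyl hydroxylases slows. The stabilised factors then raise transcription of glycolytic genes together with BNIP3, VEGFA, ANKRD37 and other targets. Cultured cardiomyocytes derived from stem cells are known for a fetal-like reliance on glycolysis, whereas the adult heart burns mainly fatty acids.

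Filtering of 24038 barcodes and removal of 2508 marked doublets left 19115 cells with a median of 11701 gene UMIs (unique molecular identifiers, each a counted RNA molecule). Of these, 1411 were stromal-like, 721 epithelial-like, 323 endoderm-like, 241 epicardial-like, 61 endothelial-like and 14700 cardiomyocyte-like, while 1658 cells stayed unnamed, at a median of 1947 UMIs with 13.1% of them mitochondrial. Levels are in CPM, the UMIs of a gene summed over the cells of a group and scaled to the total of that group. Since UMIs count molecules no division by transcript length was made. The 12 cardiomyocyte markers summed to 54284 CPM in cardiomyocyte-like cells, against 3399 to 12879 CPM in the other 5 classes. The 12 epithelial markers, keratins among them, summed to 9188 CPM in epicardial-like and 7346 CPM in epithelial-like cells, and the 7 epicardial markers told the 2 apart, at 981.7 CPM in epicardial-like and 22.0 CPM in epithelial-like cells. The members and related metabolic and hypoxia genes were kept out of the clustering that gave these classes. A difference was counted from a ratio of 1.5 with at least 10 CPM and 10 UMIs on the higher side. Every interval is an exact one at 95% and covers counting error alone. The 12 cardiomyocyte markers were present in the other classes at a median of 6.62% to 23.4% of their cardiomyocyte-like level. The part of free RNA, doublets or class membership in this was not tested.

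The promoters of 31 members were found in the RefSeq table (GRCh38.p14). BNIP3L, VEGFA, SLC2A3 and SLC16A1 were not among them. A window of 300 bases, 250 before to 50 after the gene start, was searched on both strands for ACGTG and GCGTG, core letters of the hypoxia response element. At least 1 match was found in 23 of 31 members (74.2%), in 14 of 19 glycolytic enzymes (73.7%), in 8 of 10 hypoxia genes (80%) and in 48.5% of all 35116 promoters. ACGTG alone was found in 13 of the 31 members (41.9%) and in 21.4% of all promoters. All promoters were not matched to the members by gene type or base content. The part of either in these shares was not tested. A palindromic CACGTG counts on both strands, and a match is only a run of letters. The windows of 6 members are shown because these were the 3 enzymes that varied most with the hypoxia genes from cell to cell, and the 3 hypoxia genes that varied most with the enzymes. Each reads 5′ to 3′ on the strand of its gene, with matches in capitals. They lie at chr1:8878637-8878936 (minus strand), chr12:6535014-6535313 (plus), chr11:18394313-18394612 (plus), chr10:131981874-131982173 (minus), chr10:72273674-72273973 (plus) and chr4:185396591-185396890 (plus).
ENO1: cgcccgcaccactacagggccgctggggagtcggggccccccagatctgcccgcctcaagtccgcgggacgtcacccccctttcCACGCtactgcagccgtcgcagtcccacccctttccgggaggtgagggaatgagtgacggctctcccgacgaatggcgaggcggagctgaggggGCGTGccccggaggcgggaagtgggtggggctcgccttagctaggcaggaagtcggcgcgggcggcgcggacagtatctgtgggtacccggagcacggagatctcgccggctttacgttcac
GAPDH: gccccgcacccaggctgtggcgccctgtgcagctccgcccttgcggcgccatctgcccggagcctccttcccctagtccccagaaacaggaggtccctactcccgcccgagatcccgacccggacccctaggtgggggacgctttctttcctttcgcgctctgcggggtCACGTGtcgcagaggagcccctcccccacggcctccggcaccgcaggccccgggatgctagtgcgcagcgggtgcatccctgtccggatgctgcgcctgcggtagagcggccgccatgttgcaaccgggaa
LDHA: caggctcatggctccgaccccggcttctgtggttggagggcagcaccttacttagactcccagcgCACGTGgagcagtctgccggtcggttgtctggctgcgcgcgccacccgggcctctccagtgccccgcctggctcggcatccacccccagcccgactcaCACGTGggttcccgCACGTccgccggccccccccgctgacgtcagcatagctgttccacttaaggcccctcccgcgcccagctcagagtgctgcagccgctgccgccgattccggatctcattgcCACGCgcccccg
BNIP3: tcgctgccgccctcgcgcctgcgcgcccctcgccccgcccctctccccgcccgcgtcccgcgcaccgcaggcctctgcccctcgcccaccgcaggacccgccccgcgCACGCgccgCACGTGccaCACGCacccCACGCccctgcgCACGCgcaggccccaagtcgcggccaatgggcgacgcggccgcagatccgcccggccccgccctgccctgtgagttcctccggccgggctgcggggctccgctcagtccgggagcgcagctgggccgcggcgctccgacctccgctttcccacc
DDIT4: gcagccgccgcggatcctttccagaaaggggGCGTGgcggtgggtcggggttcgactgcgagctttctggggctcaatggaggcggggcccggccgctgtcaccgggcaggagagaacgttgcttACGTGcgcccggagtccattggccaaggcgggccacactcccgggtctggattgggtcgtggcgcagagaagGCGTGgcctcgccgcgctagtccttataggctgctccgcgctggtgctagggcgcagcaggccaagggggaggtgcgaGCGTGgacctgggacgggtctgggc
ANKRD37: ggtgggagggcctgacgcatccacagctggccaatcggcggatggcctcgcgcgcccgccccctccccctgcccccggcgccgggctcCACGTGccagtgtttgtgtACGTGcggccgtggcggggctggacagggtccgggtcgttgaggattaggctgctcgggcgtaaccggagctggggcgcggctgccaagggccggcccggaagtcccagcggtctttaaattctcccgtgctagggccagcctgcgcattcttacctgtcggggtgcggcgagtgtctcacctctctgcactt
LDHA and BNIP3 held 6 matches each, DDIT4 held 4, ANKRD37 held 3, and GAPDH and ENO1 held 2 each.

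Which cells carried most of this program? Every class other than the cardiomyocytes had less of it. Members made up 0.951% of UMIs in stromal-like, 0.855% in epithelial-like, 0.917% in endoderm-like, 0.564% in epicardial-like and 1.02% in endothelial-like cells, against 1.81% in cardiomyocyte-like cells. The summed level of the 19 enzymes was 7816 CPM in stromal-like, 6407 in epithelial-like, 7849 in endoderm-like, 4836 in epicardial-like and 8598 CPM in endothelial-like cells, against 15681 CPM in the cardiomyocyte-like cells. The summed level of the 12 hypoxia genes (the 9 named above with PDK1, PFKFB3 and PFKFB4) was between 595 CPM in epicardial-like and 1329 CPM in stromal-like cells, against 1945 CPM in the cardiomyocyte-like cells. Against cardiomyocyte-like cells the hypoxia sum was thus less reduced than the enzyme sum in every class but the epicardial-like cells.

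**Figure D1:**
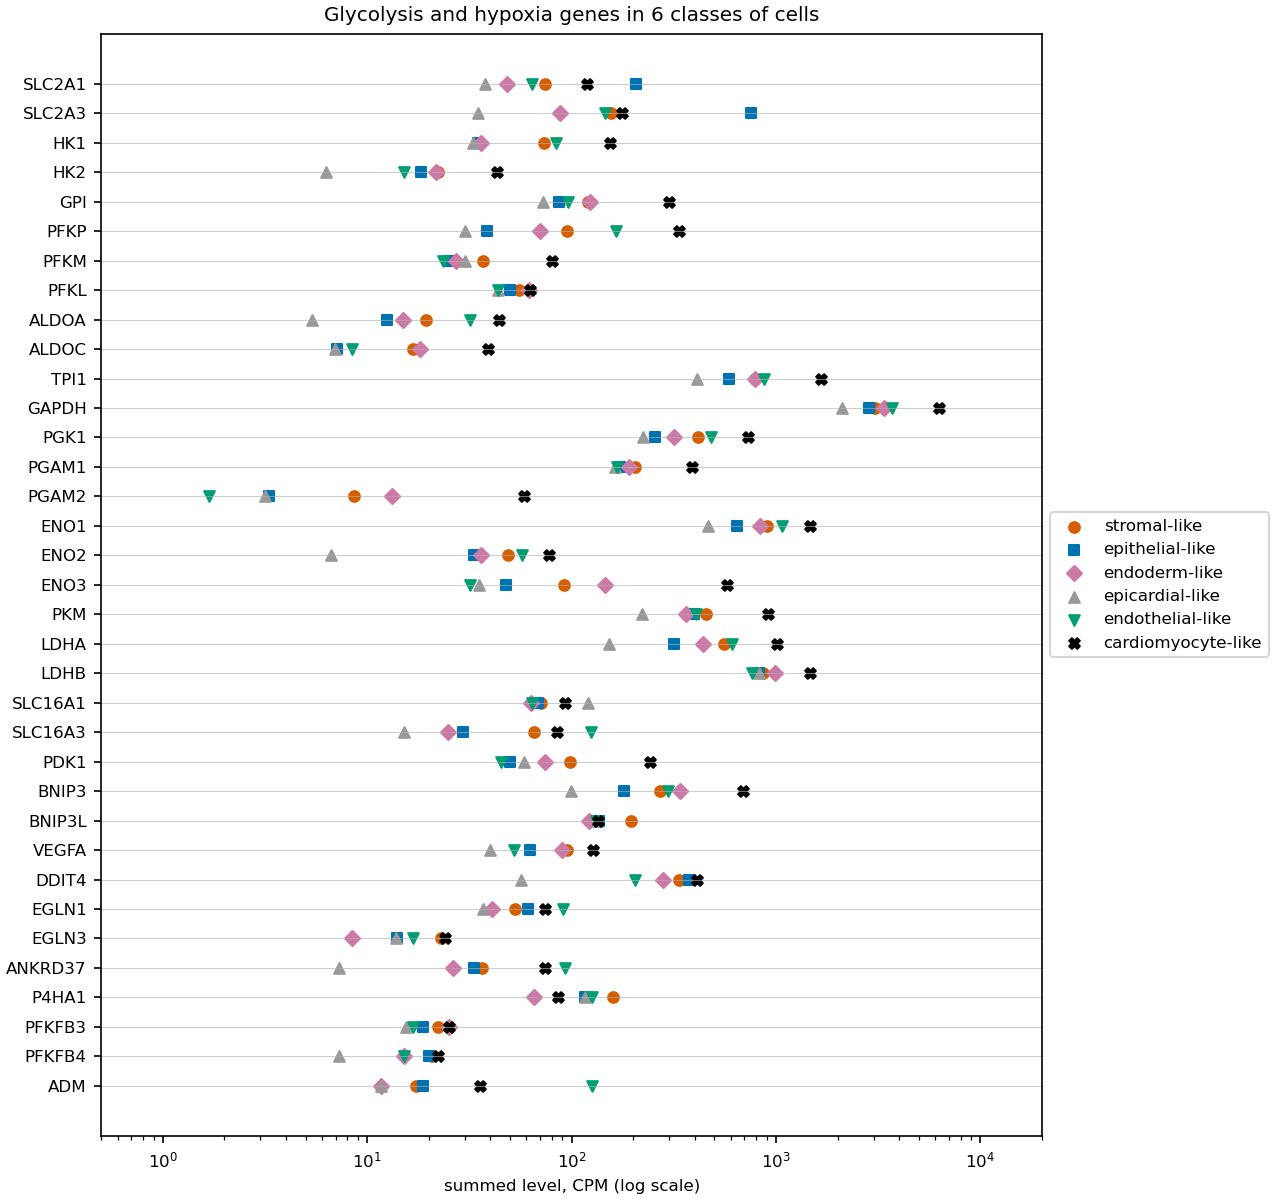
Each row is 1 gene and each mark is the summed level of 1 class in CPM on a log axis. The cardiomyocyte-like mark is the rightmost in most rows, and the exceptions include SLC2A3 and SLC2A1 in epithelial-like cells, P4HA1 and BNIP3L in stromal-like cells and ADM in endothelial-like cells.

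Counted gene by gene, all 35 members were measured in each comparison with cardiomyocyte-like cells. In stromal-like cells 1 was higher and 23 were lower, where of all 9397 measured genes 26.6% were higher and 12.2% lower. In epithelial-like cells 2 were higher and 25 lower (all genes: 28.2% and 19.2%). In endoderm-like cells 0 were higher and 26 lower (22.2% and 17.7%), and in epicardial-like cells 0 were higher and 31 lower (22.3% and 21.1%). In endothelial-like cells 1 was higher and 21 were lower (24.8% and 30.7%). The median ratio over members was 0.551 in stromal-like cells, 0.440 in epithelial-like, 0.464 in endoderm-like, 0.245 in epicardial-like and 0.587 in endothelial-like cells. Over all measured genes the same medians were 1.17, 1.12, 1.05, 1.01 and 0.947. TMM scaling, which centres the bulk of genes, lowered the log2 ratios by 0.40, 0.36, 0.24, 0.17 and 0.18 in the same order of classes, and then 28, 29, 32, 32 and 28 members were lower.

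Among the transporters, the glucose carriers parted from the enzymes in epithelial-like cells. SLC2A3, a high-affinity glucose transporter, stood at 750.8 CPM in epithelial-like cells, against 176.3 CPM in the cardiomyocyte-like cells, a ratio of 4.26 (4.15 to 4.37). It was higher in the epithelial-like cells of all 3 hashtags with at least 20 of them, at ratios of 2.51 to 4.42. SLC2A1, the basal glucose transporter, stood at 205.4 CPM in epithelial-like cells, against 119.1 CPM in the cardiomyocyte-like cells, but this ratio of 1.72 (1.65 to 1.8) turned to 0.766 at a clustering resolution of 1.0 and no longer counted, at 1.2 to 1.47, without a filter on cells, with a strict one, with TMM scaling or in cells given to 1 hashtag. Within hashtags SLC2A1 was higher in the epithelial-like cells of 2 of 3, at ratios of 0.941 to 1.82. SLC16A1, which carries lactate and pyruvate, stayed within 1.5-fold in every class, at 63.4 to 120.7 CPM, against 93.1 CPM in the cardiomyocyte-like cells. SLC16A3, the lactate exporter, was lower in 3 classes, at 15.1 CPM in epicardial-like, 24.8 CPM in endoderm-like and 29.3 CPM in epithelial-like cells, against 85.0 CPM in the cardiomyocyte-like cells.

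Of the 9 preparatory enzymes, 8 were lower in each of stromal-, epithelial-, endoderm- and epicardial-like cells and 7 in endothelial-like cells. PFKP, the platelet-type phosphofructokinase, had 94.8 CPM in stromal-like, 38.4 in epithelial-like, 69.8 in endoderm-like, 30.2 in epicardial-like and 164.7 CPM in endothelial-like cells, against 334 CPM in the cardiomyocyte-like cells. Its ratio in endoderm-like cells, 0.209, was 0.099 at a clustering resolution of 1.0 and 0.0824 in cells given to 1 hashtag. PFKL, the liver type of the same enzyme, varied far less, between 43.5 and 61.9 CPM in the other classes, against 62.8 CPM in the cardiomyocyte-like cells. HK1, the hexokinase that traps glucose in the cell, was at 33.1 to 84.0 CPM in the other classes, against 154.8 CPM in the cardiomyocyte-like cells. ALDOA and ALDOC, the aldolases, were low throughout, at 43.9 and 38.9 CPM in cardiomyocyte-like cells. In the annotation ALDOA overlaps the same-strand gene model AC093512.2. Other members overlap same-strand genes too, among them ENO2 with LRRC23, EGLN3 with SPTSSA, PGK1 with ATP7A and ALDOC with AC005726.1. Whether reads shared by overlapping genes were lost in the authors' counting was not tested.

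All 10 pay-off enzymes and lactate dehydrogenases were lower in stromal-, epithelial- and epicardial-like cells, 9 in endoderm-like and 8 in endothelial-like cells. GAPDH, the most abundant member, had 3047 CPM in stromal-like, 2848 in epithelial-like, 3360 in endoderm-like, 2104 in epicardial-like and 3681 CPM in endothelial-like cells, against 6273 CPM in the cardiomyocyte-like cells. ENO3, the muscle enolase, had 92.0 CPM in stromal-like cells, against 575.5 CPM in the cardiomyocyte-like cells, a ratio of 0.16 (0.151 to 0.169). Its ratio was 0.0827 in epithelial-like, 0.253 in endoderm-like, 0.0613 in epicardial-like and 0.0555 in endothelial-like cells. PGAM2, the muscle phosphoglycerate mutase, had ratios of 0.149, 0.0568, 0.226 and 0.0541 in the first 4 classes and 1 UMI in endothelial-like cells (ratio 0.0289, 0.00073 to 0.161). Set beside the 12 cardiomyocyte markers, these ratios lay within the range of the markers in each class except endothelial-like cells, where they lay under it. There ENO3 rests on 19 UMIs and PGAM2 on 1, and the intervals of both reach into that range. The markers were at 10.0% to 28.2% of their cardiomyocyte-like level in stromal-like, 4.19% to 19.4% in epithelial-like, 15.4% to 30.9% in endoderm-like, 4.12% to 21.6% in epicardial-like and 6.04% to 26.9% in endothelial-like cells. No estimate of free RNA was made, so the part of RNA from cardiomyocytes in the ENO3 and PGAM2 of other classes was not tested. The endoderm-like values depended on which cells were kept. At a clustering resolution of 1.0 the 299 endoderm-like cells had cardiomyocyte markers at 5055 CPM, against the 12879 CPM given above, an ENO3 ratio of 0.107 and a PGAM2 ratio of 0.0803. Within the 3 hashtags with at least 20 endoderm-like cells, ENO3 had ratios of 0.0579 to 0.0909, under the range of the markers in the pooled class. Marker levels within those hashtags are not given, so ENO3 is not placed against the markers of the same cells. ENO3 and PGAM2 both overlap a gene on the opposite strand, PFN1 and DBNL, and no source used here gives the strand setting of the counting.

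The flux regulators and hypoxia genes were less uniform. PDK1, a pyruvate dehydrogenase kinase, was lower in all 5 classes, at 45.4 to 98.2 CPM, against 241.4 CPM in the cardiomyocyte-like cells. BNIP3, a mitophagy receptor and HIF target, was lower in all 5 classes too, at 98.9 to 337.8 CPM, against 689.4 CPM in the cardiomyocyte-like cells. Its relative BNIP3L stayed within 1.5-fold everywhere, at 121.2 to 196.2 CPM, against 135.1 CPM. P4HA1, a collagen prolyl hydroxylase, stood at 159.2 CPM in stromal-like cells, against 85.9 CPM in the cardiomyocyte-like cells, a ratio of 1.85 (1.77 to 1.93), and was higher in 11 of 11 hashtags. With TMM scaling that ratio was 1.40 and no longer counted. ADM, the vasodilator adrenomedullin, stood at 126.0 CPM in endothelial-like cells, against 35.4 CPM in the cardiomyocyte-like cells, a ratio of 3.56 (2.79 to 4.46) that rests on 75 UMIs from 61 cells. Without Hashtag1, Hashtag2 or Hashtag7, 3 members instead of 1 passed as higher in endothelial-like cells, and without Hashtag15, 2 did.

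Taken hashtag by hashtag, the class differences in the sums kept their direction with few exceptions. In stromal-like cells the enzyme sum was lower in 11 of 11 hashtags with at least 20 such cells, at ratios of 0.346 to 0.767. The hypoxia sum was lower in 10 of 11, at ratios of 0.583 to 1.24. Both sums were lower in 3 of 3 hashtags for epithelial-like and for endoderm-like cells. Epicardial-like cells reached 20 cells in 1 hashtag, and endothelial-like cells in none, so the class differences of endothelial-like cells could not be read hashtag by hashtag.

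Related genes chosen by pathway gave context. Of 22 genes of oxidative and fatty acid metabolism, 20 were measured in each class; 17 were lower in stromal-, endoderm- and endothelial-like cells, 18 in epithelial-like and 19 in epicardial-like cells, and 0 were higher. FABP3, the heart fatty acid carrier, had 48.8 CPM in stromal-like cells, against 294 CPM in the cardiomyocyte-like cells. Among 11 HIF factors and regulators, EPAS1, the HIF-2 alpha subunit, stood at 11.01 CPM in stromal-like and 54.4 CPM in epithelial-like cells, against 0.764 CPM in the cardiomyocyte-like cells. HIF3A, a HIF family member, and CITED2, a competitor of HIF for its coactivator, were lower in all 5 classes. Of 29 measured other HIF targets, 9 were higher and 8 lower in stromal-like cells, where 26.6% of all measured genes were higher and 12.2% lower. The higher ones were led by IGFBP3 with 200.8 CPM, against 10.7 CPM in the cardiomyocyte-like cells. Among the lower ones FAM162A had 316.5 CPM, against 810.4 CPM.

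The choice of isoenzyme differed between classes. Of 11 gene families among the members, 6 had another leading gene in at least 1 class than in cardiomyocyte-like cells: phosphofructokinase, aldolase, PFKFB, the glucose and monocarboxylate transporters and the BNIP3 pair. PFKP took 50.7% (48.8 to 52.6) of phosphofructokinase UMIs in stromal-like, 33.8% (31.1 to 36.7) in epithelial-like, 43.9% in endoderm-like, 29.2% (24.3 to 34.4) in epicardial-like and 71.0% (62.7 to 78.4) in endothelial-like cells, against 69.98% (69.7 to 70.3) in cardiomyocyte-like cells. PFKL led instead in epithelial-like cells with 43.9% and in epicardial-like cells with 41.9%. In endoderm-like cells PFKL led without a filter on cells (51.45%), with a strict one (49.8%) and in cells given to 1 hashtag (56.1%), and HK2 led HK1 without a filter (52.2%) and in cells given to 1 hashtag (60.6%). ENO3 took 2.76% to 14.3% of enolase UMIs in the other classes, against 27.2% in cardiomyocyte-like cells, and the highest of these, in endoderm-like cells, was 6.2% in cells given to 1 hashtag. ENO1 took 82.2% to 92.3%, against 69.1%. BNIP3 took 42.5% (38.9 to 46.2) of the BNIP3 pair in epicardial-like cells, against 83.6% (83.4 to 83.8) in cardiomyocyte-like cells.

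Lactate dehydrogenase is built from LDHA, which favours lactate production, and LDHB, the heart-type subunit. LDHA took 39.2% of their UMIs in stromal-like, 27.5% in epithelial-like, 30.8% in endoderm-like, 15.6% (14.3 to 16.9) in epicardial-like and 44.6% in endothelial-like cells, against 40.7% in cardiomyocyte-like cells. LDHB took the larger share in all 6 classes. SLC16A3 took 66.1% (56.5 to 74.8) of the 2 monocarboxylate transporters in endothelial-like cells and 11.1% (8.33 to 14.5) in epicardial-like cells, against 47.7% in cardiomyocyte-like cells. SLC2A3 took 78.5% of the 2 glucose transporters in epithelial-like cells, against 59.7% in cardiomyocyte-like cells. In the glucose transporters the switch rests on epicardial-like cells, where SLC2A1 took 52.0% (45.3 to 58.6), an interval that includes equal shares. The 2 monocarboxylate transporters were also near equal in cardiomyocyte-like cells, where SLC16A3 led with 50.8% under the strict filter on cells. In PFKFB the lead changed in epithelial-like cells, where PFKFB4 took 51.7% (46.6 to 56.8). In aldolase ALDOC led with 54.6% (47.3 to 61.7) in endoderm-like and 56.4% (39.6 to 72.2) in epicardial-like cells. These intervals include equal shares, and the aldolase share carries the ALDOA limit given above.

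**Figure D2:**
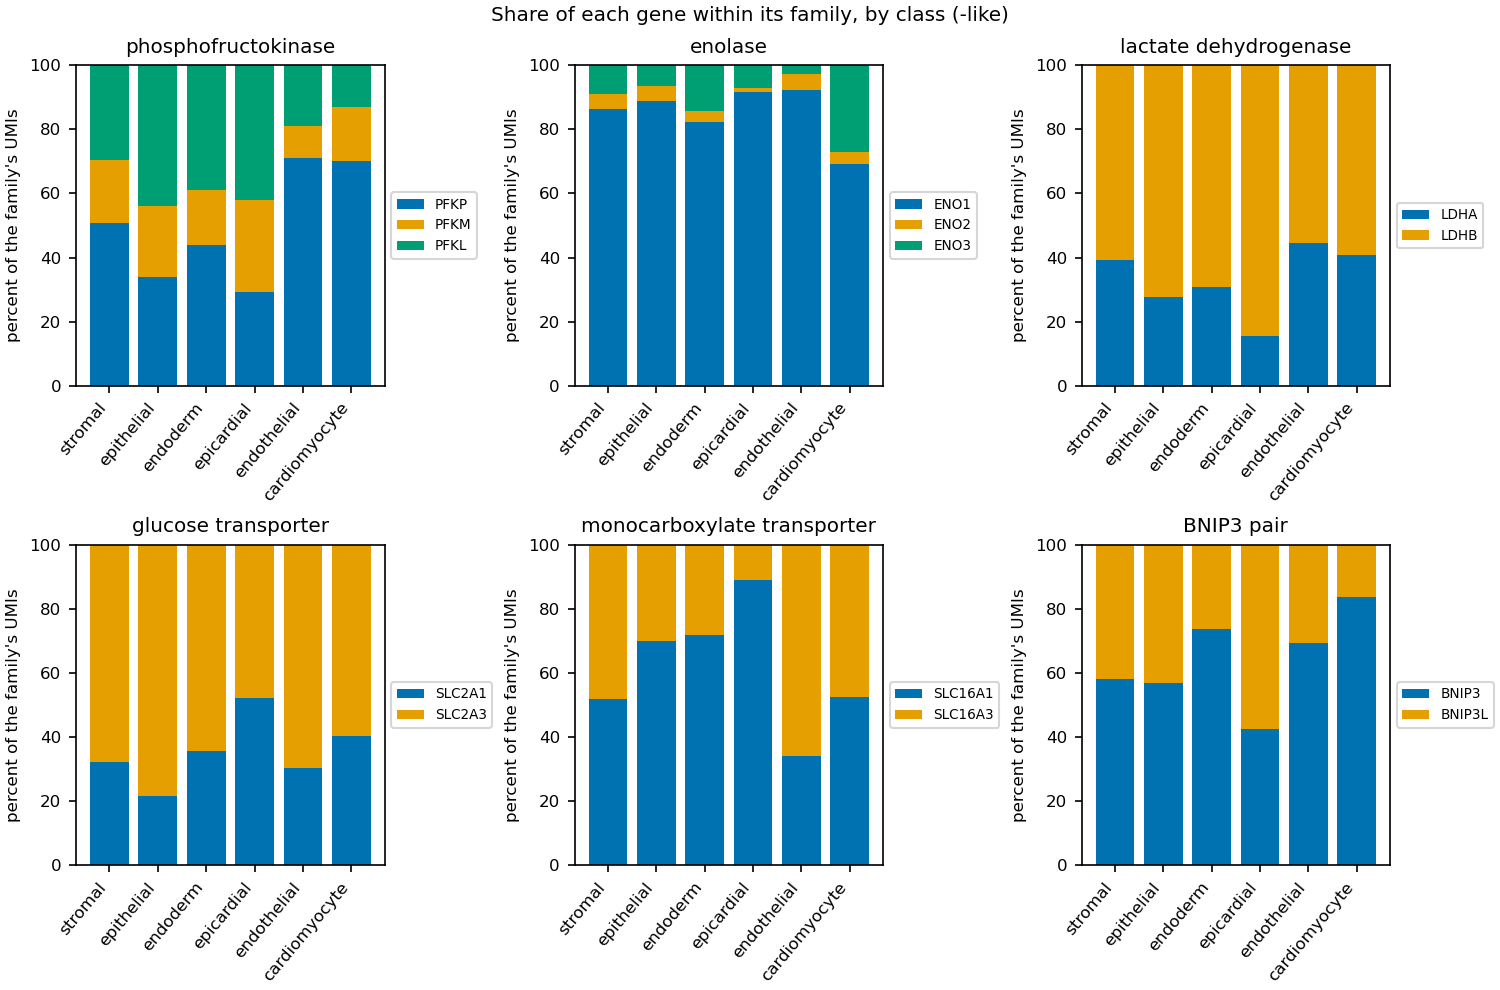
Bars give the percent of a family's UMIs that each gene took, for 6 families, with classes from left to right and cardiomyocyte-like cells last. PFKP takes 29.2% in epicardial-like cells, against 69.98% in cardiomyocyte-like cells, and LDHA is smallest in epicardial-like cells at 15.6%.

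Did the 35 genes behave as 1 module from cell to cell? Within cardiomyocyte-like cells a few abundant enzymes and BNIP3 had the highest correlations, and several members had correlations near 0 with most others. Correlations were computed over 7106 cells that had 1 hashtag and at least 3000 UMIs, each thinned to 3000 UMIs, after removal of hashtag means. They are descriptions without a test, and all cells share 1 library. Over all 3988 genes with a mean of at least 0.1 thinned UMIs, pairs had a median r of 0.0007 and a 99th percentile of 0.0544. EGLN3, PFKFB3 and PFKFB4 were below that mean. The 496 pairs of the other 32 members had a median r of 0.041, and 200 lay above that percentile. The 171 pairs of enzymes had a median r of 0.0465, with 79 above it, and the 36 pairs of hypoxia genes had a median r of 0.0665, with 23 above it, so the typical pair was no lower among hypoxia genes. Pairs of an enzyme with a hypoxia gene had a median r of 0.0257, with 45 of 171 above it. The pairs of all genes were not matched to members by mean count, which ran from 0.128 UMIs in ALDOC to 18.4 in GAPDH. The part of abundance in the pairs above the percentile was not tested.

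The 12 highest pairs were among GAPDH, ENO1, TPI1, PGK1, PKM, LDHA and BNIP3, named here by their r. GAPDH with ENO1 had the highest r among members, 0.50, followed by TPI1 with GAPDH at 0.44 and PGK1 with ENO1 at 0.41. The highest pair between an enzyme and a hypoxia gene was ENO1 with BNIP3 at 0.38. DDIT4, an inhibitor of mTORC1, and ANKRD37, a HIF target of little known function, paired with each other at 0.29. Against the summed hypoxia genes, ENO1 had an r of 0.34, GAPDH 0.31 and LDHA 0.29, whereas PGAM2 had -0.02, LDHB -0.02, ENO3 0.01 and PFKM 0.03. Their mean counts per thinned cell were 4.09 UMIs for LDHB, 1.76 for ENO3, 0.241 for PFKM and 0.178 for PGAM2, and the part of counting depth in these values was not tested. The sum of the 19 enzymes and the sum of the 12 hypoxia genes correlated at r = 0.40, and at 0.45 with thinning to 5000 UMIs. Abundant genes weigh most in these sums: GAPDH had an r of 0.87 with the enzyme sum, and BNIP3 0.65 and DDIT4 0.57 with the hypoxia sum. With the enzyme sum BNIP3 had an r of 0.46 and DDIT4 0.21, and the other hypoxia genes correlated here had 0.04 to 0.10.

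**Figure D3:**
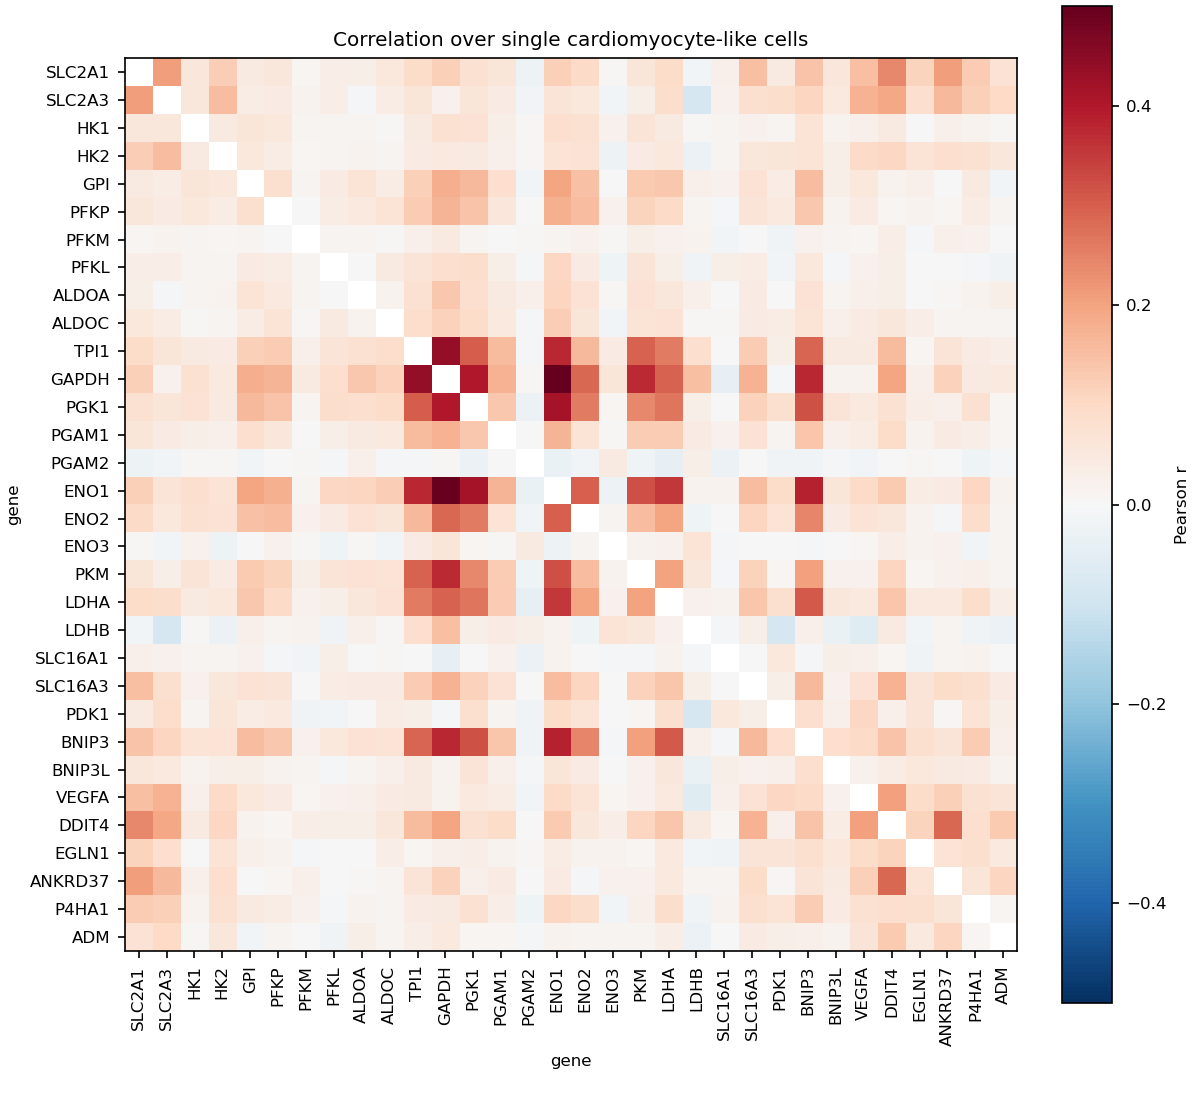
Colour gives Pearson's r over 7106 single cardiomyocyte-like cells for each pair of 32 members. The squares of TPI1, GAPDH, PGK1, ENO1, PKM, LDHA and BNIP3 are darkest, with GAPDH and ENO1 at 0.50, and the rows of PGAM2, ENO3, PFKM and SLC16A1 are pale.

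Among genes outside the 35, MIF, a cytokine and HIF target, followed the enzyme sum most closely with r = 0.59, and FAM162A, a HIF target in mitochondria, came next at 0.53. TNNI1, C4orf3, HSPB7, KRT19, RPL29 and ABCA7 followed at 0.29 to 0.39. The hypoxia sum was followed by FAM162A at 0.38, HILPDA, a lipid droplet protein, at 0.28 and BHLHE40, a repressor, at 0.22. C4orf3, MTFP1, MIF, RRAD and ABCA7 followed at 0.19 to 0.22.

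Cells were also ranked within their hashtag by one sum, and the genes of the other sum, which the rank did not use, were read in the top and bottom quintile. These quintiles are ranges of a continuous score: 231 cells lay within 1 UMI of the upper limit and 496 of the lower limit for the enzyme score, and 1079 and 2440 for the hypoxia score. By enzyme score, 7 of 12 hypoxia genes were higher in the top quintile (1416 cells) than in the bottom quintile (1426 cells) and 0 were lower, where 4.61% of all 8651 genes were higher and 18.4% lower. BNIP3 reached 1314 CPM in the top quintile, against 340.4 CPM in the bottom quintile, a ratio of 3.86 (3.76 to 3.97), and was higher in 13 of 13 hashtags. ANKRD37 had 97.8 CPM in the top quintile, against 34.4 CPM in the bottom quintile, and DDIT4 had 610.1 against 238.9 CPM, a ratio of 2.55 that was 3.93 without Hashtag6. PFKFB4, PFKFB3, P4HA1 and ADM were also higher, by ratios of 1.55 to 2.27. The calls of PFKFB3 and ADM ended with a strict filter on cells (1.41 and 1.49), without Hashtag4 (1.42 and 1.44) and without Hashtag8 (1.43 in both), that of PFKFB3 without Hashtag10 (1.485) and that of ADM without cardiomyocyte clusters 3 and 10 (1.4). PFKFB3 was higher in 10 and ADM in 11 of 13 hashtags. PDK1 at 1.14, BNIP3L at 1.19, EGLN1 at 1.30, VEGFA at 1.41 and EGLN3 at 1.46 were not counted.

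By hypoxia score, 10 of 19 enzymes were higher in the top than in the bottom quintile and 0 were lower, where 4.15% of all 8441 genes were higher and 1.33% lower. ENO2, the neuronal enolase, had 153.5 CPM in the top quintile, against 37.2 CPM in the bottom quintile, a ratio of 4.12 (3.8 to 4.47). HK2, the inducible hexokinase, had 77.1 against 21.8 CPM, a ratio of 3.54. LDHA had 1606 against 637.4 CPM, a ratio of 2.52, and its partner LDHB had 1416 against 1461 CPM, a ratio of 0.97. ENO1 (2.19), ALDOC (2.17), PGK1 (2.01), GAPDH (1.66), ALDOA (1.66), TPI1 (1.53) and GPI (1.52) were higher as well. TPI1 and GPI no longer counted without Hashtag4 (1.499 and 1.486), nor GPI without Hashtag9 (1.497), and both were higher in 13 of 13 hashtags. Outside both sums, SLC2A1 had 226.5 CPM in the top quintile, against 49.6 CPM in the bottom quintile, SLC2A3 had 320.1 against 96.3 CPM and SLC16A3 had 152.2 against 40.8 CPM, whereas SLC16A1 had 100.5 against 90.02 CPM. Members of 1 family differed in this: LDHA, ENO1, ENO2 and HK2 passed as higher, whereas LDHB, ENO3 (1.02) and HK1 (1.35) did not.

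Other gene lists differed between the same quintiles. Of 26 measured further HIF targets, 22 were higher and 1 lower in the top quintile by hypoxia score, and 15 were higher and 2 lower by enzyme score. ANGPTL4, a regulator of lipid uptake, had 11.1 CPM in the top quintile by hypoxia score, against 0.942 CPM in the bottom quintile. Of 9 measured HIF factors and regulators, 0 were higher and 0 lower by hypoxia score, and 0 were higher and 4 lower by enzyme score. Median mitochondrial UMIs were 1.76% in the top quintile by enzyme score, against 3.53% in the bottom quintile, and 7 of 15 cell cycle genes were lower there. The part of either in the result was not tested.

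Did cardiomyocyte subtypes differ? Subtypes were set by single marker transcripts after thinning to 3000 UMIs, so cells that expressed a marker without a counted UMI fall on the other side. HEY2-positive cells (4368, ventricular side, without NR2F2 and SHOX2) had 0 members higher and 0 lower than other cardiomyocyte-like cells, where 0.0363% of genes were higher and 0.943% lower. NR2F2-positive cells without SHOX2 (1557, atrial side) had 1 member higher and 3 lower (all genes: 5.04% and 1.82%). DDIT4 stood at 196.9 CPM in NR2F2-positive cells, against 428.7 CPM in the others, a ratio of 0.459 (0.443 to 0.476), and was lower in 9 of 9 hashtags. ADM stood at 54.3 CPM, against 33.8 CPM, a ratio of 1.61 (1.5 to 1.72), and was higher in 8 of 9 hashtags; it did not count with TMM scaling (1.47) or when all UMIs set the subtype (1.34). ANKRD37 had a ratio of 0.601 and EGLN3 of 0.627, and without Hashtag15 these were 0.711 and 0.674 and did not count. Within hashtags ANKRD37 was lower in 8 of 9 and EGLN3 in 9 of 9.

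SHOX2-positive cells (174, pacemaker side) had 0 members higher and 10 lower (all genes: 12.9% and 7.26%). The lower ones included DDIT4 at 169.6 CPM, against 412.6 CPM in the others, BNIP3 at 407.9 against 692.6 CPM, LDHA at 655.1 against 1013 CPM and SLC2A1 at 64.4 against 119.4 CPM. A single hashtag had at least 20 such cells. Within it the ratios were 0.544 for DDIT4, 0.57 for LDHA, 0.587 for SLC2A1 and 0.69 for BNIP3, the last not counted. BNIP3 and LDHA no longer counted without a filter on cells, at a clustering resolution of 1.0 or when all UMIs set the subtype (0.693 to 0.737 for BNIP3, 0.768 to 0.806 for LDHA), and SLC2A1 did not count without a filter (0.7) or at resolution 1.0 (0.698). The ratio of DDIT4 pooled over hashtags was 0.411, and 0.235 when only cells given to 1 hashtag were pooled. The count of lower members was 3 when all UMIs set the subtype and 5 without the filter on cells or at a clustering resolution of 1.0. Cells with at least 3 of 10 G2M genes (984) had 0 members higher and 2 lower (all genes: 7.7% and 2.54%). PGAM2 had 29.5 CPM in G2M-positive cells, against 61.5 CPM in the others, and was lower in 10 of 10 hashtags, and ALDOC had 23.4 against 40.6 CPM. Median depth was 9067 UMIs in SHOX2-positive and 19566 in G2M-positive cells, against 12929 and 12570 in the cells they were set against. For the NR2F2-positive cells without SHOX2 it was 8886 UMIs, against 13419.5 in the others.

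A small cluster of cardiomyocytes carried the abundant glycolytic enzymes and BNIP3 at higher levels. Cardiomyocyte-like cells formed 10 clusters on other genes, and cluster 9 (755 cells), led by MT3, HLA-DQB1 and NMB, was highest of the 10 in 22 of 35 members. Members made up 3.75% of its UMIs, against 1.43% to 2.16% in the other 9 clusters. It was singled out after its values were seen, and its genes are a description of a cluster and no test. ENO2 stood at 447.6 CPM in cluster 9, against 36.4 to 107.7 CPM in the others. GAPDH stood at 14648 CPM, against 4414 to 8241 CPM, ENO1 at 4208 CPM, against 947 to 1816 CPM, LDHA at 2728 CPM, against 650 to 1337 CPM, and BNIP3 at 2095 CPM, against 500.4 to 745.6 CPM. The muscle isoenzymes were not raised there: ENO3 had 558.3 CPM, against 576.3 CPM over all other cardiomyocyte-like cells, and PGAM2 had 52.4 against 58.5 CPM.

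Against all other cardiomyocyte-like cells, 20 of 35 members were higher in cluster 9 and 0 were lower, where 5.53% of genes were higher and 17.2% lower. They included 8 of 9 preparatory enzymes, 6 of 10 pay-off enzymes, SLC2A1 and SLC16A3, 1 of 3 flux regulators and 3 of the 9 other hypoxia genes. BNIP3 had a ratio of 3.33 (3.28 to 3.38), P4HA1 of 2.86 (2.73 to 2.99) and VEGFA of 1.66 (1.58 to 1.74), whereas DDIT4 had 1.35 (1.31 to 1.39) and ANKRD37 had 0.92 (0.847 to 0.997). PFKL, at 1.39 without a filter on cells or with a strict one, lost its call there. Its call was also lost at a clustering resolution of 1.0, where the ratio rounded to 1.5. SLC2A1 was higher in the 5 hashtags with at least 20 cells of the cluster by ratios of 1.03 (Hashtag6) to 4.11, and VEGFA by 1.08 (Hashtag6) to 2.45. In 5 of 5 of these hashtags the enzyme sum was higher in cluster 9, at 28690 to 36040 CPM, against 14004 to 17726 CPM in their other cardiomyocytes. ANKRD37 was higher in 2 of these 5. Of 26 measured further HIF targets, 16 were higher and 2 lower in cluster 9, the higher ones led by LOX, NDRG1 and P4HA2, while HIF1A, the HIF-1 alpha subunit, had 73.7 CPM in cluster 9, against 123.5 CPM in the others. All 15 cell cycle genes were lower there, with MKI67 at 1.68 CPM, against 29.3 CPM. The others include clusters 7 and 8, where the 15 genes summed to 1866 and 3211 CPM. Their sum was 160.7 CPM in cluster 9, inside the 104 to 320 CPM of the remaining clusters. HSP90AA1, a chaperone, had 3244 CPM in cluster 9, against 1283 CPM in all other cardiomyocyte-like cells. Median mitochondrial UMIs in cluster 9 were 1.54%, against 1.53% to 3.69% in the other clusters. Cluster 9 held 0% to 16.4% of the cardiomyocyte-like cells of a hashtag, with the highest share in Hashtag5.

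**Figure D4:**
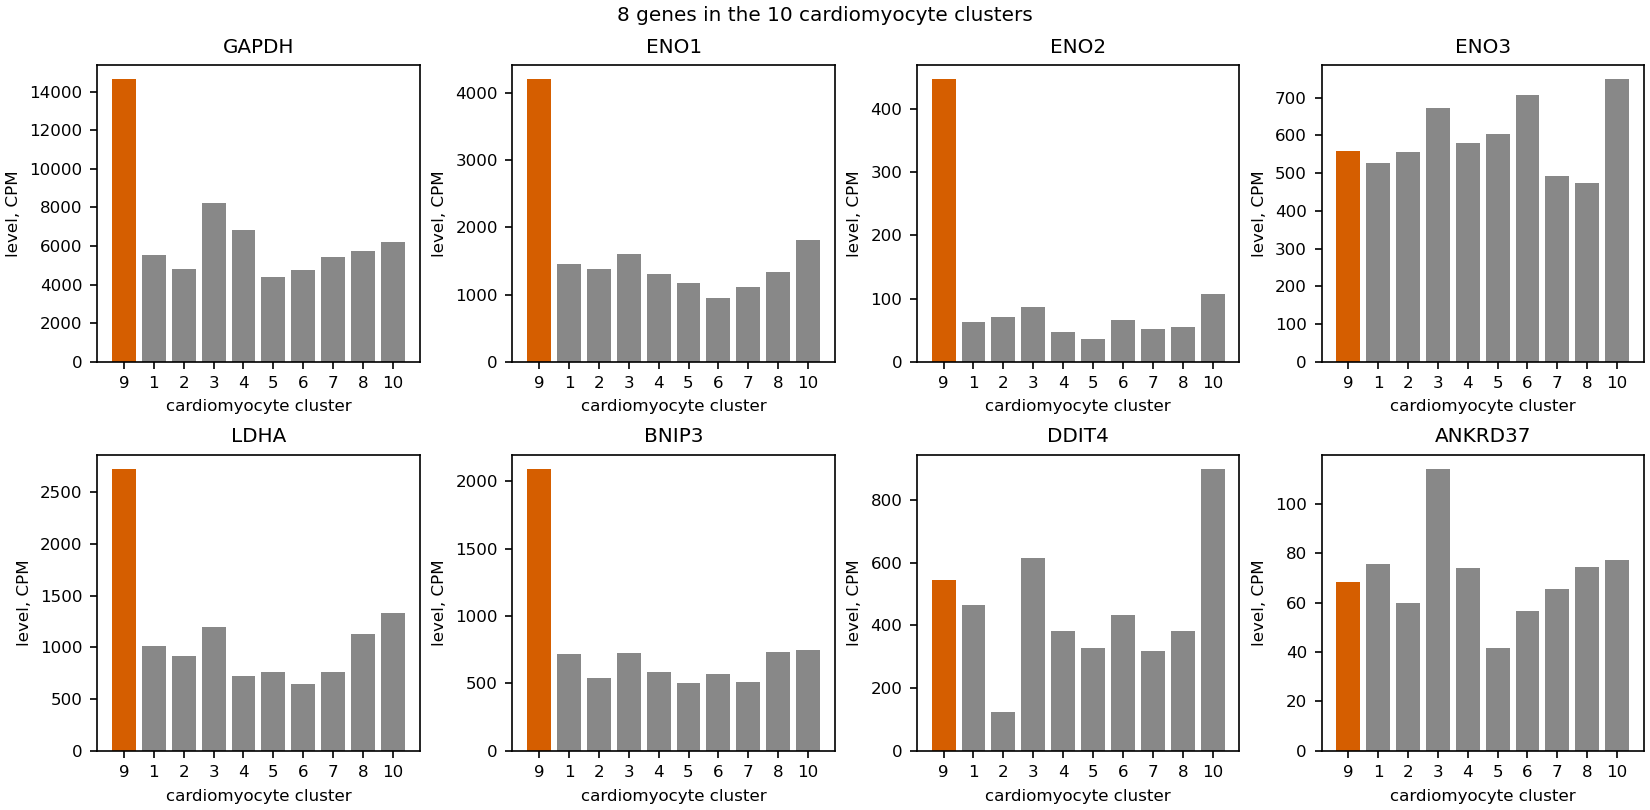
Bars give the level of 8 genes in CPM in the 10 cardiomyocyte clusters, with cluster 9 at the left in colour. Cluster 9 stands far above the others for GAPDH, ENO1, ENO2, LDHA and BNIP3 but not for ENO3, DDIT4 or ANKRD37.

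DDIT4, ANKRD37, VEGFA and ADM were highest in other clusters. Cluster 10 (147 cells), which COL3A1 and MYH11 mark among its leading genes, had the highest DDIT4 at 899.9 CPM, VEGFA at 268.4 CPM and SLC2A3 at 382.4 CPM. Cluster 3 (1896 cells), with the stromal genes COL3A1 and LUM among its leading genes, had the highest ANKRD37 at 114.2 CPM and, after cluster 10, the next highest DDIT4 at 615.5 CPM. Its 8 stromal markers summed to 80.1 CPM, those of cluster 10 to 274.8 CPM, and those of stromal-like cells to 2363 CPM. Their part in these levels was not tested. Cluster 2, led by NR2F2 and NPPA, had the lowest DDIT4 at 123.8 CPM and the highest ADM at 63.8 CPM. These levels are pooled over hashtags. Of cells given to 1 hashtag, Hashtag7 made up 53.2% in cluster 10, Hashtag6 23.1% in cluster 3 and Hashtag15 40.7% in cluster 2. Over all its cardiomyocyte-like cells DDIT4 stood at 516 CPM in Hashtag7, 1291 CPM in Hashtag6 and 124.9 CPM in Hashtag15, and ADM at 52.3 CPM in Hashtag15. The part of hashtag in the cluster levels was not tested.

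Hashtags mark samples whose treatment the labels do not give, so their values are listed and not compared as groups. Of 14700 cardiomyocyte-like cells, 7301 were given to 1 hashtag, 109 to 1014 per hashtag. Between the highest and the lowest of 13 hashtags, 33 of 35 members differed by 1.5-fold or more, where 71.7% of all measured genes did. The median ratio was 2.20 over members and 1.72 over all genes. Highest values were most often in Hashtag5 and Hashtag6 (11 members each) and lowest values in Hashtag1 and Hashtag10 (14 members each). Hashtag1 had 109 cells and its counts are the least precise.

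The widest range belonged to DDIT4, with 123.1 CPM in Hashtag12, a median of 232.1 CPM and 1291 CPM in Hashtag6, followed at a distance by 518.6 CPM in Hashtag8. LDHA had 263.1 CPM in Hashtag10, a median of 931.4 CPM and 1568 CPM in Hashtag6, whereas LDHB had 1118 CPM in Hashtag1, a median of 1465 CPM and 1584 CPM in Hashtag6. LDHA therefore took 14.3% of lactate dehydrogenase UMIs in Hashtag10 and 50.5% in Hashtag5. Hashtag10 was also lowest in ENO2 with 22.3 CPM (median 78.5, highest 133.0 in Hashtag5), SLC16A3 with 24.5 CPM (median 76.2, highest 149.4 in Hashtag6) and ADM with 9.42 CPM (median 33.1, highest 66.6 in Hashtag6). ANKRD37 had 22.1 CPM in Hashtag1, a median of 60.6 CPM and 163.3 CPM in Hashtag9. ENO3 varied least, between 496.3 and 656.5 CPM, and with LDHB was the only member under 1.5-fold. Median mitochondrial UMIs ranged from 1.53% in Hashtag6 to 4.04% in Hashtag1, and their part in these differences was not tested. Cluster 9 held 16.4% of the cardiomyocyte-like cells of Hashtag5, 7.70% in Hashtag6 and 0% in Hashtag1 and Hashtag10. Outside cluster 9, ENO2 had 85.2 CPM in Hashtag5, against 133.0 CPM with it, and 72.6 CPM in Hashtag6, against 99.5 CPM. Hashtag5 remained the highest in ENO2 of the 5 hashtags read this way. The part of cluster 9 in the hashtag levels of other members was not tested.

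**Figure D5:**
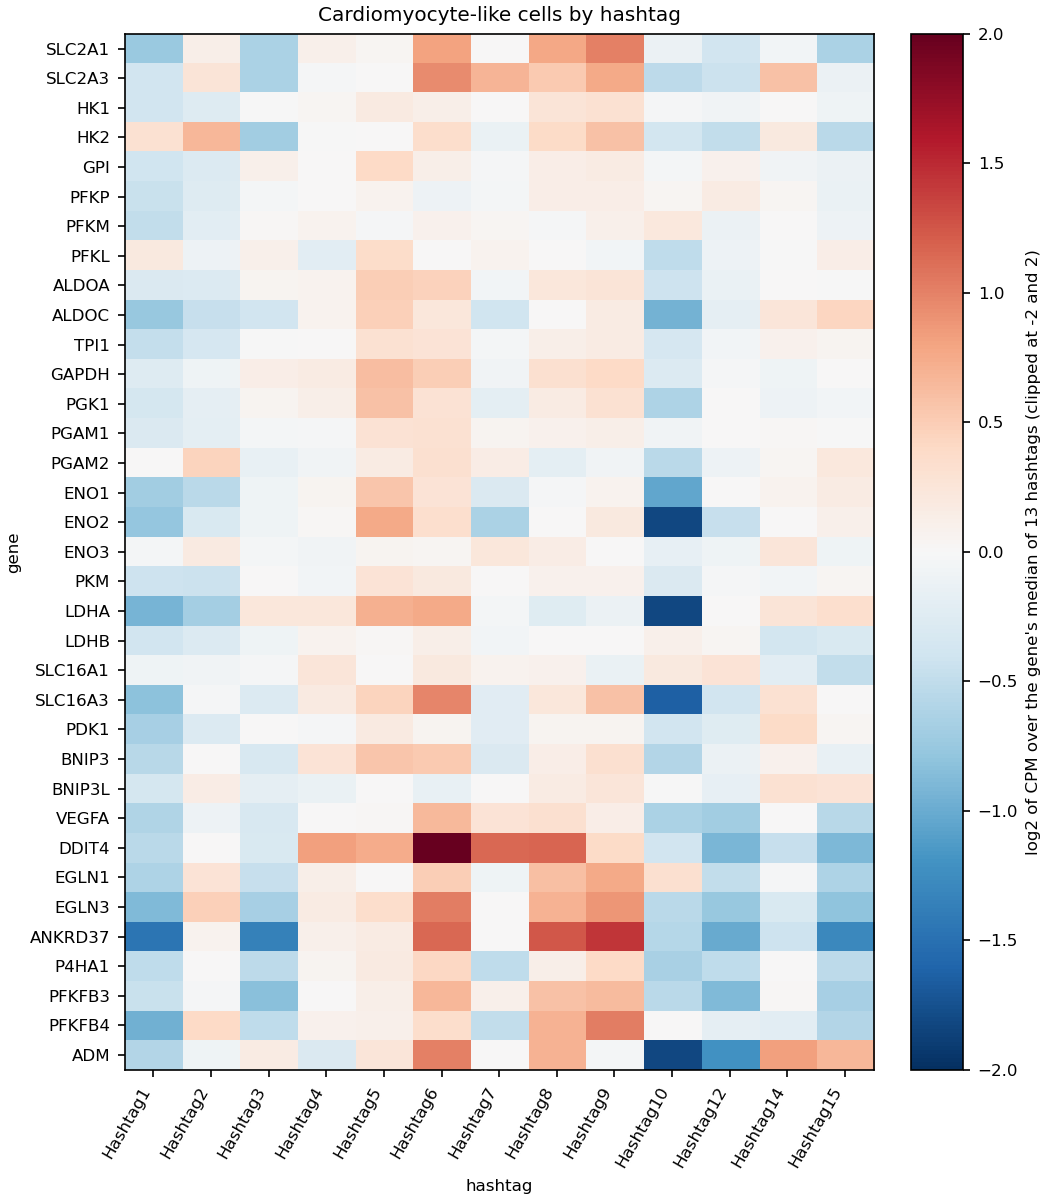
Colour gives the log2 of a gene's level in CPM over its median of 13 hashtags, in cardiomyocyte-like cells. DDIT4 is darkest red in Hashtag6 (1291 CPM) and ANKRD37 in Hashtag9 (163.3 CPM), Hashtag10 is dark blue for LDHA, ENO2, SLC16A3 and ADM, and the row of ENO3 is pale.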

How the data were processed

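A gene expression library and a hashtag library from 1 pool of cells were read from 1 deposited matrix of raw counts (UMIs): 36601 genes and 13 hashtags for 24038 barcodes, with 311110726 gene UMIs. The authors made it with Cell Ranger 4.0.0, per the file headers, on hg38, per the submitters' processing notes. No source used here gives the annotation release, strand setting or cell calling.

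The 21623 barcodes with 500 genes or more, 1000 UMIs or more and a mitochondrial share of up to 25% were kept. Scrublet in scanpy 1.11.5 marked 11.6% of them, against 17.3% expected, so doublets may remain. The 2000 most variable genes without members, related metabolic and HIF genes, mitochondrial and ribosomal genes gave 30 components and leidenalg 0.10.2 clusters (resolution 0.6). Clusters were named from fixed marker lists. A cell belonged to a hashtag with at least 70% of at least 20 hashtag UMIs. Free RNA was not corrected. Several enzymes, GAPDH and PGAM1 among them, have processed pseudogenes, and how reads shared with them were counted is not given.

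UMIs were summed per group. Ratios have exact conditional binomial intervals, shares exact Clopper-Pearson intervals (scipy 1.17.1), all for counting error only. With 1 pool no p-value was computed. Ratio and correlation code was tested on simulated data. Members and lists were chosen with earlier results of these data known. Named were all 35 members, up to 3 genes per related list and direction with the largest ratio past 1.5, and the 8 other genes most correlated with each sum; cluster 9, its leading genes and the NR2F2 and stromal marker genes of clusters 2, 3 and 10 were named after their values were seen, and FABP3, HIF3A and CITED2 as list members. Positions are from RefSeq on GRCh38.p14, the build of hg38.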

Additional observations from a re-analysis of the deposited data

How the results depend on the processing

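Each alternative changed 1 choice. Counts of members moved by over 1.5 times in the following cases. In stromal-like cells 2 members were higher without a filter on cells, with a strict filter and at a clustering resolution of 1.0, and 0 with TMM scaling. In epithelial-like cells 1 was higher under these 4 alternatives and with only cells given to 1 hashtag. In SHOX2-positive cells 1 was higher and 5 were lower without a filter and at resolution 1.0, 3 were lower when all UMIs set the subtype, and 1 was higher without the cardiomyocyte clusters 3 and 10. In NR2F2-positive cells 0 were higher with TMM scaling, and 0 were higher and 1 lower when all UMIs set the subtype, a choice that also left 1 lower in G2M-positive cells. In endothelial-like cells 2 were higher without clusters 3 and 10, an alternative chosen after seeing the data. The correlation of the 2 sums was 0.4455 with thinning to 5000 UMIs and 0.4432 with hashtag means kept. At resolution 1.0 the ratio of SLC2A1 reversed, to 1.114 in stromal-like and 0.7657 in epithelial-like cells. The epithelial-like class then held 452 cells, against 721 in the clustering used above. A cluster of 269 cells, with GABRP, ANXA1 and TFAP2A among its leading genes, was named stromal-like at resolution 1.0. In the clustering used above, these were among the leading genes of the epithelial-like class. The SLC2A3 ratio in stromal-like cells was 1.854 at resolution 1.0, against 0.8877. The part of these class changes in the reversal was not tested.

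Leaving out each hashtag in turn gave 1 to 3 higher and 19 to 25 lower members in endothelial-like cells and 1 to 3 lower in NR2F2-positive cells. It gave 22 to 23 lower members in stromal-like, 26 to 27 in endoderm-like, 31 to 32 in epicardial-like and 9 to 11 in SHOX2-positive cells, 5 to 9 higher hypoxia genes by enzyme score, 8 to 10 higher enzymes by hypoxia score, 20 to 21 higher members in cluster 9 and 28 to 33 members past 1.5-fold between hashtags. Of 183 member ratios past 1.5-fold, 23 no longer counted in at least 1 alternative, 10 of them when a hashtag was left out. No paired analysis was possible because the results come from no test and the labels give no replicate numbers, so groups set side by side within hashtags are described only. Endothelial-like cells (61) and SHOX2-positive cells (174) are few, and their counts are small.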

Other observations

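The 1658 unnamed cells were above all named classes in several hypoxia genes and below cardiomyocyte-like cells in others. PDK1 stood at 648.3 CPM there, against 241.4 CPM in cardiomyocyte-like cells, VEGFA at 409.3 against 127.7 CPM, PFKFB4 at 100.9 against 22.1 CPM and EGLN1 at 126.4 against 74.2 CPM. BNIP3 was lower there, at 379.0 against 689.4 CPM, as were DDIT4, at 184.6 against 410.3 CPM, and ANKRD37, at 35.4 against 74.1 CPM. ADM, at 27.0 against 35.4 CPM, and EGLN3, at 21.0 against 24.0 CPM, were lower too. The same cells had lower GAPDH, at 2003 against 6273 CPM, and LDHB, at 496.8 against 1471 CPM. Their cardiomyocyte markers summed to 45314 CPM, against 54284 CPM in cardiomyocyte-like cells, and their leading genes included the nuclear RNAs MALAT1 and NEAT1. They had a median of 1947 UMIs, against 12633 in cardiomyocyte-like cells, and 13.1% mitochondrial UMIs, against 2.56%. The part of depth and mitochondrial share in these levels was not tested.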
